A study of Mus musculus with 24 samples.

Results

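The genes described here encode the proteins of the cytosolic ribosome. They were followed in mouse liver with and without the clock gene Arntl, also called Bmal1, in hepatocytes. Members were the genes whose symbols name a cytosolic small (40S) or large (60S) subunit protein, including Rplp0, Rplp1, Rplp2 and Rpsa, with a mean of at least 5 CPM (a gene's counts scaled to the same total in each library) over the 24 libraries. Of 35304 genes in the count table, 82 had such a symbol and 76 reached the minimum, 31 of the 40S and 45 of the 60S subunit. All 76 were among the 17275 genes with enough counts to be tested. HepKO mice carried the floxed Bmal1 allele on both chromosomes and the Alb::Cre transgene (Alb::Cre_+/0, Bmal1_fl/fl), which is driven by the albumin promoter and so acts in hepatocytes, while the other cells of the liver keep the gene. HepWT mice carried the same floxed alleles without the transgene (Alb::Cre_0/0, Bmal1_fl/fl), so effects of Cre itself and of the deletion cannot be told apart. All mice were C57BL/6, 8 to 12 weeks old and fed only at night. Livers were sampled every 4 h from ZT2 to ZT22, where ZT is zeitgeber time in hours from the start of the light phase. Each genotype has 2 libraries at each of the 6 times, 12 libraries per genotype. The labels do not state that these came from separate animals, so a p-value here reflects the spread among libraries, which may be technical.

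Ribosomal protein genes are among the most evenly and highly expressed genes of any cell, since each protein is needed in about equal number in every ribosome. Their transcripts are TOP mRNAs, which start with a cytosine followed by a run of pyrimidines. Through this run, mTORC1 signalling and the RNA-binding protein LARP1 set how much of the mRNA is on ribosomes, so protein synthesis from them can change with feeding while the mRNA level stays constant. Several of the proteins also act outside the ribosome. Rpl5 and Rpl11, for example, bind MDM2 with the 5S rRNA when ribosome assembly fails.

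In the count table, 5 HepKO libraries (replicate 2 at all times but ZT2) held 12997689 to 16910415 counts, and the remaining 19 held 23583035 to 30677807. Arntl ranged from 1.27 to 46.0 CPM in HepWT and from 10.3 to 17.7 CPM in HepKO. Its 24 h rhythm differed between the genotypes (adjusted p = 0.0021, edgeR quasi-likelihood test). The count covers the whole gene, and the sources used here do not give the exons that the floxed allele loses, so the mean level does not check the deletion. Hepatocyte markers such as Ttr, Apoa1 and Cps1 were abundant in all libraries. Albumin (Alb) itself fell from a mean of 63916 CPM in HepWT to 25009 CPM in HepKO.

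The ribosomal protein mRNAs were modestly and almost uniformly higher in HepKO. Their summed level, in CPM scaled by TMM (edgeR's trimmed mean of M values), was 10319 ± 736 (SD, n = 12 libraries) in HepWT and 11604 ± 443 (SD, n = 12) in HepKO. Single HepWT libraries ran from 9073 to 11267 with a median of 10351, and HepKO libraries from 10828 to 12322 with a median of 11574. The groups overlapped, but 10 of the 12 HepKO libraries lay above the highest HepWT library. As a share of all counts, the members held 0.898% to 1.13% in HepWT and 1.10% to 1.27% in HepKO. Both subunits contributed. The 40S members summed to 4138 ± 308 CPM in HepWT and 4580 ± 178 CPM in HepKO, and the 60S members to 6181 ± 431 and 7025 ± 268 CPM (SD, n = 12 libraries each). In whole liver, fewer cells of a type and less RNA per cell cannot be told apart.

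**Figure D1:**
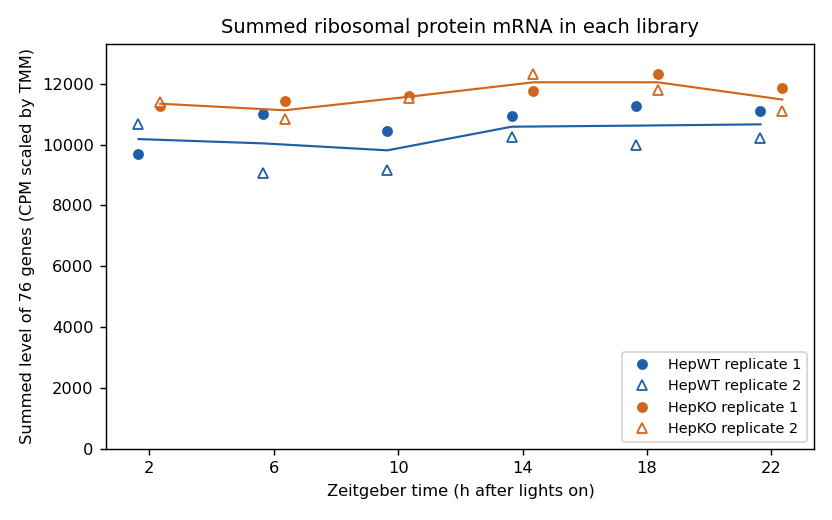
Summed level of the 76 genes (y axis, CPM scaled by TMM) against zeitgeber time (x axis, h) in each library, with filled circles for replicate 1, open triangles for replicate 2 and lines through the group means. The HepKO libraries lie at 10828 to 12322 and the HepWT libraries at 9073 to 11267, with replicate 2 mostly below replicate 1 in HepWT.

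Gene by gene, 57 of the 76 members rose in HepKO when the difference was averaged over the 6 times (edgeR quasi-likelihood test, Benjamini-Hochberg adjusted p below 0.05), against 13.2% of all tested genes. Of the 7662 tested genes within the members' range of mean CPM, 1462 were called higher and 1333 lower. No member was called lower, against 13.3% of all tested genes, and 2 members were lower at an unadjusted p below 0.05, against 18.8%. DESeq2 and limma-voom also called none lower, and called 58 and 57 higher. The median difference of the members was 0.18 on the log2 scale, a 1.13-fold higher level, with the middle 50% between 0.13 and 0.20, while the median of all tested genes was -0.010. The median standard error of a single member was 0.045. The difference was positive in 74 of 76 members, and 63 were higher in HepKO at all 6 times, against 11.6% of all tested genes, while 1 was lower at all 6, against 11.8%. The 60S subunit had 40 of 45 members called with a median of 0.18, and the 40S subunit 17 of 31 with a median of 0.14. The difference between the subunits was not tested.

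**Figure D2:**
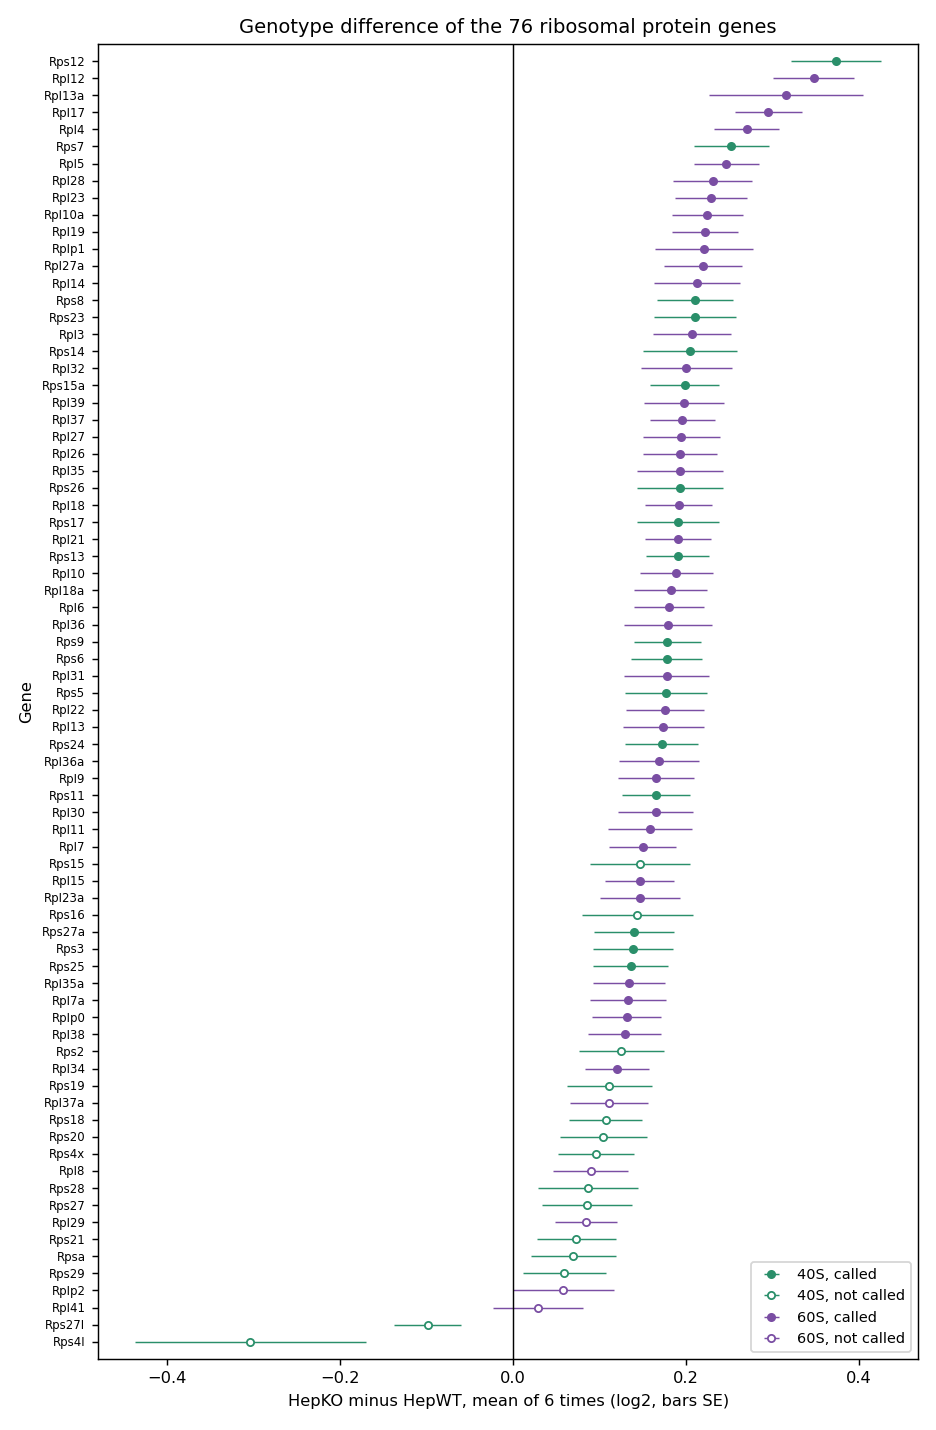
Difference between HepKO and HepWT averaged over 6 times (x axis, log2, bars are standard errors) for each of the 76 members (y axis), with filled points for adjusted p below 0.05. Apart from Rps27l and Rps4l at the bottom, the points lie between 0.029 and 0.37.

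The size of this difference depended on which HepWT libraries were used. Averaged over the 6 times, HepWT replicate 2 libraries were lower than HepWT replicate 1 libraries in 75 of 76 members. The median was -0.12 (log2), while all tested genes had a median of 0.0031. By time, the members' median was 0.13 at ZT2, where replicate 2 was the higher, and between -0.27 (ZT6) and -0.093 (ZT14) at the other times. In the averaged comparison Rpl13a was the exception, at 0.17. In that comparison 0 members passed the adjusted threshold, against 0.469% of all tested genes, and 20 of 76 were at an unadjusted p below 0.05, against 14% of all tested genes (edgeR quasi-likelihood test). The summed level was 10743 ± 589 CPM in HepWT replicate 1 and 9895 ± 644 CPM in replicate 2 (SD, n = 6 libraries each), compared with 11709 ± 363 and 11500 ± 523 CPM in HepKO. With HepWT replicate 1 alone as the control, 31 members were called higher with a median of 0.12, and 1, Rps27l, was called lower. With HepWT replicate 2 alone, 69 were called higher with a median of 0.23. Without the 5 HepKO libraries of lowest depth, 47 were called higher with a median of 0.20. With total counts in place of TMM the median was 0.23 and that of all tested genes was 0.045.

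Marker mRNAs of some other liver cell types differed between the genotypes as well. Of 12 Kupffer cell and macrophage markers, 11 fell and 1 (Mpeg1) rose in HepKO, with a median difference of -0.38 (log2), and their summed level ran from 349 to 641 CPM in HepWT and from 346 to 652 CPM in HepKO. Of 10 liver endothelium markers, 7 fell, with a median of -0.14, and their sum ran from 498 to 564 CPM in HepWT and from 458 to 534 CPM in HepKO. Of 12 hepatocyte markers, 2 fell (Alb and Trf), 1 rose (Apoa2) and 9 were not called, with a median of -0.076. Their sum ran from 98998 to 138989 CPM in HepWT and from 63015 to 83392 CPM in HepKO. Alb alone ran from 55916 to 82224 CPM in HepWT and from 18420 to 34519 CPM in HepKO. Among all tested genes 13.3% fell and 13.2% rose. No marker of these lists was at 0 in all libraries. The part of these shifts in the ribosomal protein difference was not tested.

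The member with the largest rise was Rps12, a 40S protein (ENSMUSG00000061983, chr10:23785183-23787275, minus strand, GRCm38, GENCODE M21). It ran from 120 to 172 CPM in HepWT (median 142) and from 167 to 198 CPM in HepKO (median 183), and 11 of the 12 HepKO libraries lay above all HepWT libraries. Its difference was 0.37 ± 0.052 (log2, SE), 1.30-fold (adjusted p = 3.4e-05, edgeR quasi-likelihood test). Rpl12, a protein at the base of the 60S stalk (ENSMUSG00000038900, chr2:32961559-32965345, plus strand), ran from 131 to 176 CPM in HepWT (median 155) and from 180 to 211 CPM in HepKO (median 197). Its libraries did not overlap between genotypes, and the difference was 0.35 ± 0.047 (adjusted p = 2.4e-05). Rpl17, which lines the exit tunnel of the large subunit, did not overlap either, at 151 to 194 CPM in HepWT and 197 to 228 CPM in HepKO, a difference of 0.30 ± 0.039 (adjusted p = 1.7e-05).

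Rpl5, which carries the 5S rRNA into the large subunit (ENSMUSG00000058558, chr5:107900502-107909005, plus strand), was the third and last member without overlap. It ran from 154 to 189 CPM in HepWT (median 180) and from 196 to 222 CPM in HepKO (median 207), with a difference of 0.25 ± 0.037 (adjusted p = 8.8e-05, edgeR quasi-likelihood test). These 3 of 76 members compare with 0.949% of all tested genes in which every HepKO library lay above every HepWT library, and no member lay wholly below, against 0.48%. Rpl5's partner Rpl11 rose by less, at 113 to 151 CPM in HepWT and 135 to 159 CPM in HepKO, a difference of 0.16 ± 0.049 (adjusted p = 0.022), and 3 HepKO libraries lay above the HepWT range. Rpl11 was not called with HepWT replicate 1 alone (0.073, adjusted p = 0.21) or without the 5 HepKO libraries of lowest depth (0.18, adjusted p = 0.093).

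Rpl4, another tunnel protein (ENSMUSG00000032399, chr9:64173375-64178666, plus strand), had the highest mean CPM of the members, with 347 to 439 CPM in HepWT and 433 to 501 CPM in HepKO. Its difference was 0.27 ± 0.038 (adjusted p = 3.6e-05, edgeR quasi-likelihood test), and 11 HepKO libraries lay above the HepWT range. Rps7, a 40S protein that also binds MDM2 (ENSMUSG00000061477, chr12:28630854-28635953, minus strand), ran from 110 to 139 CPM in HepWT and from 133 to 163 CPM in HepKO, a difference of 0.25 ± 0.043 (adjusted p = 0.00028). Rpl13a, which is also part of an inhibitor of translation in stimulated macrophages, had the third largest difference, 0.32 ± 0.089 (adjusted p = 0.013), at a level just above the minimum for members. Its gene span overlaps that of the gene model Gm45713 on the same strand. Rpl13a ran from 5.99 to 12.8 CPM in HepWT and 8.68 to 11.7 CPM in HepKO, and no HepKO library lay above the HepWT range. Without the 5 HepKO libraries of lowest depth its adjusted p was 0.069.

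**Figure D3:**
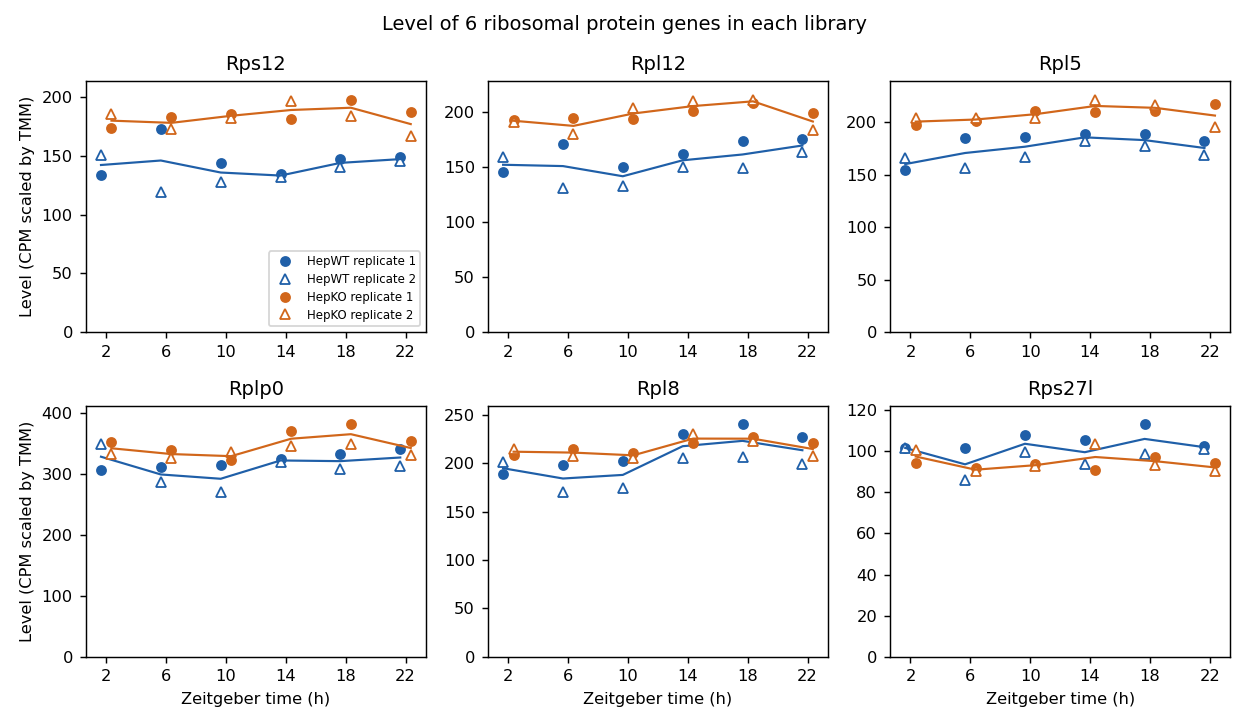
Level of 6 members in each library (y axis, CPM scaled by TMM, from 0) against zeitgeber time (x axis, h), with filled circles for replicate 1, open triangles for replicate 2 and lines through the group means. Rpl12 and Rpl5 do not overlap between genotypes, Rps12 overlaps in 1 HepWT library, and Rps27l is slightly lower in HepKO.

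The stalk proteins, which recruit the elongation factors, differed among themselves. Rplp0 ran from 270 to 349 CPM in HepWT (median 313) and from 323 to 381 CPM in HepKO (median 342), a difference of 0.13 ± 0.040 (adjusted p = 0.020, edgeR quasi-likelihood test). It was not called with HepWT replicate 1 alone (0.099, adjusted p = 0.12), without the 5 HepKO libraries of lowest depth (0.17, adjusted p = 0.050) or with no filter on low counts (0.12, adjusted p = 0.098). Rplp1 ran from 176 to 262 CPM in HepWT and from 235 to 288 CPM in HepKO, a difference of 0.22 ± 0.056 (adjusted p = 0.0073). Rplp2, which pairs with Rplp1 on the stalk, was at 67.3 to 95.9 CPM in HepWT and 78.6 to 93.3 CPM in HepKO, and its difference of 0.058 ± 0.058 did not pass (adjusted p = 0.52). All HepKO values of Rplp2 lay within the range of the HepWT values.

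Rpl3, next to the peptidyl transferase centre, rose by 0.21 ± 0.045 (log2, SE, adjusted p = 0.0023, edgeR quasi-likelihood test). Rpl10, which completes the large subunit late in its assembly, rose by 0.19 ± 0.043 (adjusted p = 0.0029). Rps3, at the mRNA entry channel, rose by 0.14 ± 0.047 (adjusted p = 0.035). Rps6, the 40S protein phosphorylated by S6 kinase below mTORC1, ran from 95.8 to 127 CPM in HepWT and from 117 to 132 CPM in HepKO, a difference of 0.18 ± 0.041 (adjusted p = 0.0035). With HepWT replicate 1 alone, Rpl10 (adjusted p = 0.065) and Rps6 (adjusted p = 0.076) were not called.

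Rps14, the 40S gene linked to the anaemia of 5q- syndrome, rose by 0.20 ± 0.054 (adjusted p = 0.0094, edgeR quasi-likelihood test), from a median of 112 CPM in HepWT to 130 CPM in HepKO. Rps19, the gene most often mutated in Diamond-Blackfan anaemia, was at 84.4 to 111 CPM in HepWT and 91.0 to 116 CPM in HepKO and did not pass (0.11 ± 0.049, adjusted p = 0.11). Rpsa, the laminin-receptor protein of the 40S subunit, did not pass either (0.070 ± 0.049, adjusted p = 0.33). Rps19 was called higher in 3 of 36 alternative analyses, and Rpsa and Rplp2 in 1 each. Rps27a, made as a fusion with ubiquitin, rose by 0.14 ± 0.046 (adjusted p = 0.033), and Rpl38, known from skeletal patterning in the mouse, by 0.13 ± 0.042 (adjusted p = 0.031). Rpl22 rose by 0.18 ± 0.045 (adjusted p = 0.0076). The calls of Rps27a and Rpl38 were each lost in 13 of 36 alternative analyses, and that of Rps3 in 16, single left-out libraries among them, with adjusted p up to 0.19, 0.17 and 0.30. With HepWT replicate 1 alone, Rps14 (adjusted p = 0.12) and Rpl22 (adjusted p = 0.14) were not called.

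The 2 members with a negative difference are both paralogues of core proteins. Rps27l, a p53-induced relative of Rps27, was at 85.8 to 113 CPM in HepWT and 90.1 to 103 CPM in HepKO, a difference of -0.098 ± 0.039 that did not pass (adjusted p = 0.073, edgeR quasi-likelihood test). It was negative at all 6 times. It was called lower with HepWT replicate 1 alone (-0.16, adjusted p = 0.018) and without HepWT ZT6 replicate 2 (adjusted p = 0.034), HepWT ZT18 replicate 2 (adjusted p = 0.042) or HepKO ZT14 replicate 2 (adjusted p = 0.047). Rps27 itself was at 88.1 to 124 CPM in HepWT and 97.9 to 126 CPM in HepKO (0.086 ± 0.052, adjusted p = 0.26). Rps4l, a single-exon relative of Rps4x, had a median of 11.8 CPM in HepWT and 9.08 CPM in HepKO, with overlapping ranges (-0.30 ± 0.13, adjusted p = 0.11). Rps4l was called lower with no filter on low counts (adjusted p = 0.00022) and without HepKO ZT6 replicate 1 (adjusted p = 0.033) or HepKO ZT14 replicate 1 (adjusted p = 0.028). The 5 members of the 60S subunit that were not called were Rpl41, Rplp2, Rpl29, Rpl8 and Rpl37a, and Rpl41, the shortest of the proteins, had the smallest difference (0.029 ± 0.052, adjusted p = 0.74).

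Per kilobase of exon, the median member stood at 64.0 CPM per kb in HepWT, with the middle 50% between 39.6 and 103. Rplp1 was highest at 442 CPM per kb, followed by Rps2 at 219, Rpl36 at 200 and Rpl4 at 196. Rpl13a was lowest at 3.94 CPM per kb, followed by Rps15a at 10.7 and Rps4l at 12.4. The length used is that of all annotated exons of a gene merged, 6.27 kb for Rps15a. A rank here thus depends on the annotation as well as on the level. The 2 members just inside the minimum of 5 CPM were Rpl13a at a mean of 9.32 CPM and then Rps4l, and the next was Rps16 at 51.1 CPM. Just outside it were Rps10 at 1.56 CPM, Rpl32l at 1.18, Rpl6l at 0.883 and Rpl24 at 0.337. Rpl3l, the form of striated muscle, and Rpl39l, the form of testis, were close to 0, at 0.042 and 0.0080 CPM. In GENCODE M21 the spans of Rps10, Rpl24, Rpl32l, Rpl13a, Rpl13 and Rpl19 each overlap another gene model on the same strand. Overlap of exons was not examined. The sources used here do not say how the counting treated reads in such stretches. Of the 52 members that overlap no other gene, small RNA genes aside, 37 were called higher, with a median of 0.18. The 258 table entries named as ribosomal protein pseudogenes held 1.06% as many counts as the members, so reads shared with such copies remain an uncertainty of each level.

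A feature that the choice of members did not use is a snoRNA gene within the gene body. In GENCODE M21, 29 of the 76 members hold an annotated snoRNA gene on the same strand, and this split was chosen after the differences were seen. Of the 6 members with the largest differences, 5 are such hosts: Rps12 (Snora33 and Snord100), Rpl12 (Snora65), Rpl13a (Snord32a, Snord33, Snord34 and Snord35a), Rpl17 (Snord58b) and Rpl4 (Snord16a). Rps7 is not. The 29 hosts had 24 genes called higher and a median of 0.19, and the other 47 members 33 called higher and a median of 0.17. Among tested genes other than members, 218 hosts had 25.2% called higher and a median of 0.044, against 12.8% and -0.012 in the 16981 others. Hosts and others were not matched for level. Of the 7662 tested genes within the members' range of mean CPM, 1462 were called higher. Gas5, a non-coding host whose RNA also begins with a pyrimidine run, ran from 36.0 to 51.4 CPM in HepWT and from 50.1 to 65.8 CPM in HepKO (0.38 ± 0.042, adjusted p = 3.3e-06, edgeR quasi-likelihood test).

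Because the members moved together, the sequence around their starts is shown for Rps12, Rpl12, Rpl4, Rps7 and Rpl5, which are among the 7 members with the largest differences, and for Rplp0. Each window runs from 40 bases before to 20 bases from the annotated RefSeq start onwards (GRCm38.p6), and capitals mark the longest run of C and T within 20 bases of the start. The annotated start can be some bases away from the start used in liver.
Rps12, chr10:23787190-23787249, minus strand: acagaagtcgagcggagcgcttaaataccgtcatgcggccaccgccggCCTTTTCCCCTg
Rpl12, chr2:32961672-32961731, plus strand: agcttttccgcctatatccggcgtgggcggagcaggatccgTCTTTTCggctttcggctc
Rpl4, chr9:64173347-64173406, plus strand: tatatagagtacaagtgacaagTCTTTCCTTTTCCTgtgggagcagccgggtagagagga
Rps7, chr12:28635934-28635993, minus strand: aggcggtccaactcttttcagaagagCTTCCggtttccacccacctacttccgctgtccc
Rpl5, chr5:107900488-107900547, plus strand: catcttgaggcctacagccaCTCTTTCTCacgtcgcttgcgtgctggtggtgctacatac
Rplp0, chr5:115559427-115559486, plus strand: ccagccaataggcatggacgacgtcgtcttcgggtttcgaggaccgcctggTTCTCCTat
The runs in capitals were 11 bases in Rps12, 14 in Rpl4, 9 in Rpl5, 7 in Rpl12 and Rplp0 and 5 in Rps7. The Rps7 window also holds a longer run, ctcttttc, more than 20 bases before the annotated start.

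Of the 76 members, 55 had a promoter in the table, 66 promoters in all. Runs of at least 8 pyrimidines within 20 bases of the start were found in 43.9% of these promoters, against 16% of all 32851 promoters in the table, and the median longest run was 7 against 5 bases. The sequence TTCCGG or its complement CCGGAA, the core of ETS family sites, was in 48.5% of member promoters and in 14.9% of all promoters. AAGATGG or CCATCTT, the core of YY1 sites, was in 16.7% against 6.34%. TATAAA or TTTATA was in 9.09% against 13.6%.

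CACGTG, the E-box that BMAL1 and CLOCK bind but that other factors such as MYC share, reads the same on both strands. It was in 12.1% of member promoters and 7.15% of all promoters. These member promoters belong to 6 of 55 genes, Rpl13a, Rpl14, Rpl19, Rpl23, Rpl34 and Rps19. Rpl19 and Rpl34 each count with 2 promoters that share the same E-box. In Rpl19 and Rpl23 it lies next to an annotated start, and these windows are shown with the E-box in capitals.
Rpl19, chr11:98026671-98026716, plus strand: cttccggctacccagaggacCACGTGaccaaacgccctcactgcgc
Rpl23, chr11:97782417-97782462, minus strand: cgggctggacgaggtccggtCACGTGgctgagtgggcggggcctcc
All 6 had a positive difference, as did 74 of all 76 members. Rps19 alone of the 6 did not pass the test, and 57 of all 76 members were called higher. Of the 6, Rpl13a was called rhythmic in HepWT. A match to these letters is a description of sequence and not evidence that a factor binds there.

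At single times the differences were close to the precision of 2 libraries a group, with a median standard error of 0.11 per member. The median difference was 0.16 at ZT2, 0.13 at ZT6, 0.22 at ZT10, 0.18 at ZT14, 0.19 at ZT18 and 0.10 at ZT22, and 68 to 74 of the 76 members were positive at each time. Members called higher (edgeR quasi-likelihood test, adjusted p below 0.05) numbered 0 at ZT2 against 0.944% of all tested genes, 1 at ZT6 (Rps15a) against 2.55%, and 6 at ZT10 (Rpl4, Rpl28, Rpl10a, Rpl3, Rps12 and Rpl12) against 3.73%. They numbered 3 at ZT14 (Rps12, Rpl12 and Rpl27a) against 4.6%, 0 at ZT18 against 2.08% and 0 at ZT22 against 0.839%. At an unadjusted p below 0.05, 17 members were higher at ZT2 (6.05% of all tested genes), 18 at ZT6 (9.29%), 36 at ZT10 (9.63%), 17 at ZT14 (10.5%), 21 at ZT18 (7.52%) and 5 at ZT22 (6.27%). DESeq2 called 2, 3, 11, 5, 2 and 0 in that order of times. No member was called lower by edgeR at any time, against 0.915%, 2.41%, 3.98%, 3.04%, 1.7% and 0.509% of all tested genes. At ZT10, Rpl12 differed by 0.49 (adjusted p = 0.013) and Rpl10a by 0.46 (adjusted p = 0.0087).

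These counts at single times rested on single libraries. The ZT10 count was 0 without HepWT ZT10 replicate 2 or HepKO ZT10 replicate 1, 2 without HepKO ZT10 replicate 2, 3 without HepWT ZT10 replicate 1, 10 without HepWT ZT14 replicate 1 and 11 without HepWT ZT6 replicate 1. The ZT14 count was 0 without either HepWT ZT14 library or HepKO ZT14 replicate 2, and 5 and 6 without HepWT ZT6 replicates 1 and 2. It was 1 or 2 without any of 9 other HepKO libraries. The ZT6 count was 7 without HepWT ZT6 replicate 1 and 0 without any of the other ZT6 libraries. The test of whether the genotype difference changed with time called no member (edgeR quasi-likelihood test), against 1.12% of all tested genes, and none at an unadjusted p below 0.05, against 9.7%. DESeq2 and limma-voom called none as well.

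**Figure D4:**
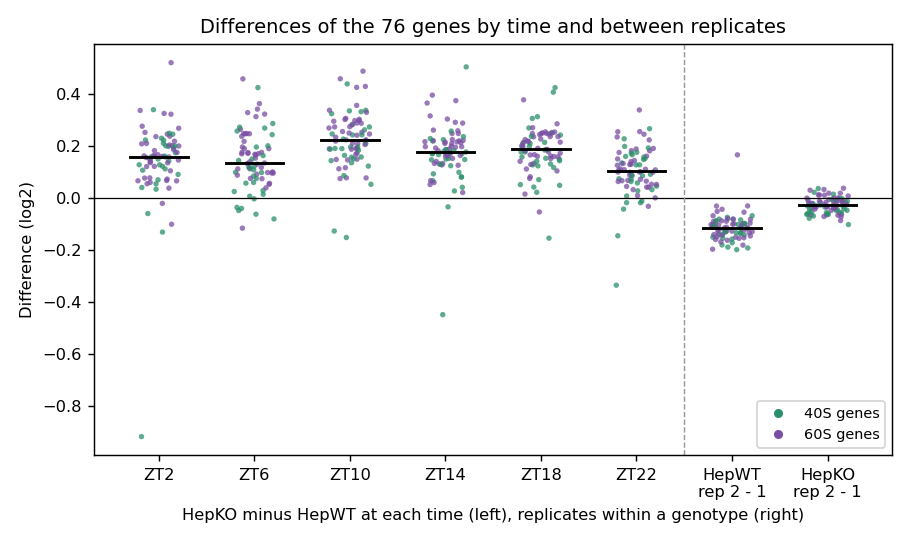
Difference of each of the 76 members (y axis, log2) between HepKO and HepWT at each zeitgeber time and, to the right of the dashed line, between replicate 2 and replicate 1 within each genotype, with medians as bars. The medians lie between 0.10 and 0.22 at the 6 times, at -0.12 between the HepWT replicates and at -0.029 between the HepKO replicates.

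The members showed little 24 h rhythm in either genotype. In HepWT, 3 of 76 were called rhythmic in the edgeR quasi-likelihood test of a 24 h cosine wave, against 30.3% of all tested genes and 44.6% of the 7662 tested genes within the members' range of mean CPM, and 17 were at an unadjusted p below 0.05 (41.1% of all tested genes). In HepKO, 0 were called, against 14.3% of all tested genes and 23.1% of genes in the same range of CPM, and 5 were at an unadjusted p below 0.05 (28.9%). DESeq2 called 13 in HepWT and 2 in HepKO, and limma-voom 4 and 0. The amplitude, which is the distance from mean to peak on the log2 scale, had a median of 0.066 in HepWT and 0.060 in HepKO. The median standard error of an amplitude was 0.042. All tested genes had medians of 0.22 and 0.19, and genes in the members' range of CPM 0.16 and 0.13. By comparison, 26 of 77 mitochondrial ribosomal protein genes were called rhythmic in HepWT and 22 in HepKO. Of 8 tested ribosomal proteins and close kin outside the naming rule, 3 were called in HepWT and 1 in HepKO, with median amplitudes of 0.138 and 0.144.

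The 3 members called in HepWT were Rpl8, Rpl13a and Rpl6. Rpl8, a protein near the peptidyl transferase centre, was at 188 and 201 CPM at ZT2, 199 and 170 at ZT6, 202 and 174 at ZT10, 230 and 205 at ZT14, 240 and 206 at ZT18, and 227 and 200 at ZT22 in the HepWT replicates 1 and 2. The libraries of ZT14 and ZT18 were thus all above those of ZT2, ZT6 and ZT10, with a fitted amplitude of 0.15 ± 0.038 (SE), a peak at ZT18.2 and an adjusted p of 0.014 (edgeR quasi-likelihood test). In HepKO its 12 libraries lay between 206 and 230 CPM, with an amplitude of 0.056 ± 0.038 (adjusted p = 0.57). Rpl13a had an amplitude of 0.29 ± 0.083 with a peak at ZT17.0 (adjusted p = 0.030), and its HepWT replicates differed at ZT14, at 8.03 and 12.8 CPM. Rpl6 had an amplitude of 0.13 ± 0.037 with a peak at ZT18.1 (adjusted p = 0.034).

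Which members were called changed with single HepWT libraries. The count was 11 without HepWT ZT6 replicate 1, 9 without HepWT ZT18 replicate 2, 1 without HepWT ZT18 replicate 1 or HepWT ZT2 replicate 2, and 0 without HepWT ZT6 replicate 2. It was 0 when HepWT was fitted alone, where 2 members were called in HepKO. The 24 h rhythm differed between the genotypes in none of the members (edgeR quasi-likelihood test), against 1.5% of all tested genes, and in none at an unadjusted p below 0.05, against 12.5%. DESeq2 and limma-voom called none either. The smallest unadjusted p of this test, 0.053, was that of Rps16, a 40S protein with a fitted amplitude of 0.056 ± 0.062 in HepWT and 0.17 ± 0.062 in HepKO. The highest amplitudes in HepKO after Rps16 were those of Rpl10a (0.16 ± 0.046, adjusted p = 0.056), Rps27 (0.13 ± 0.048, adjusted p = 0.15) and Rpl7a (0.13 ± 0.040, adjusted p = 0.075), and none of them passed.

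**Figure D5:**
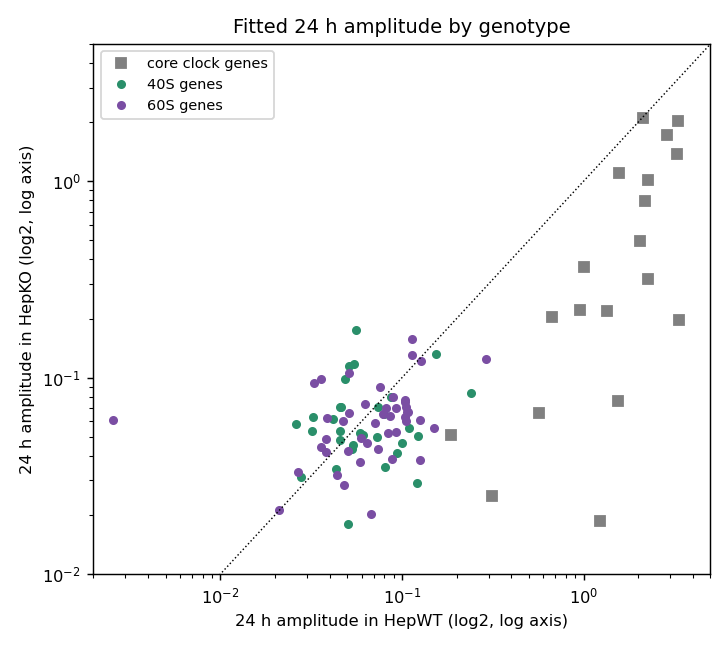
Fitted 24 h amplitude in HepWT (x axis) and HepKO (y axis), both in log2 units on log axes, for the 40S and 60S members (circles) and the core clock genes (squares), with a dotted line of equal amplitude. The members lie at or below 0.29 on both axes, while most core clock genes lie above 0.5 in HepWT and below the line.

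Most fitted peak times lay in the same 12 h, but few members had a rhythm that was called, 3 in HepWT and 0 in HepKO. In HepWT 67 of 76 peaks lay between ZT12 and ZT24, with a circular mean of ZT19.2. In HepKO 72 of 76 did, with a circular mean of ZT15.9. The standard error of a peak in HepWT was 0.97 h for Rpl8, 6.9 h for Rpl35a and 52 h for Rpl19. Rpl19 had a fitted amplitude of 0.0026 in HepWT and is counted among the 67, although its peak has no defined time. The difference between the circular means was not tested, and no member had a rhythm difference at an unadjusted p below 0.05 (edgeR quasi-likelihood test). The members share libraries, so a library that is high for one is high for most, and the peaks are not independent of each other. The summed level at each time shows the same shape. In HepWT it was lowest at ZT10 (mean 9811 CPM) and highest at ZT22 (10666 CPM), and in HepKO it was lowest at ZT6 (11129 CPM) and highest at ZT14 and ZT18 (12049 and 12048 CPM). Replicates of one time could differ by more than these means do, as at ZT6 in HepWT with 11009 and 9073 CPM.

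Genes close to the members in function but outside their naming rule were counted beside them. Of all tested genes, 13.2% rose and 13.3% fell. Of 8 tested ribosomal proteins and close kin with other names, 4 rose and none fell, with a median of 0.13. Rps3a1, a core 40S protein, rose by 0.23 ± 0.046 (log2, SE; adjusted p = 0.0011, edgeR quasi-likelihood test). Rack1, a scaffold on the 40S head, rose by 0.15 ± 0.037 (adjusted p = 0.0050). Rpl22l1, the paralogue of Rpl22, rose by 0.32 ± 0.071 (adjusted p = 0.0025), and Rpl7l1 by 0.11 ± 0.032 (adjusted p = 0.019). Fau, which encodes eS30 fused to a ubiquitin-like protein, did not pass (0.058 ± 0.059, adjusted p = 0.52), and neither did Rpl36al (0.052 ± 0.16, adjusted p = 0.86).

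Of 12 genes listed with translation elongation and release, 5 rose and 1 fell, with a median of 0.10. Among them Tpt1, also a TOP mRNA, ran from 349 to 422 CPM in HepWT and from 420 to 462 CPM in HepKO (0.22 ± 0.042, adjusted p = 0.00065, edgeR quasi-likelihood test), and Eef1g rose by 0.19 ± 0.041 (adjusted p = 0.0022). Of 35 initiation factors, 13 rose and none fell, with a median of 0.044. Eif4a2 (0.28 ± 0.045, adjusted p = 0.00015) and Eif3e (0.19 ± 0.031, adjusted p = 0.00016) had the smallest p. Of 77 mitochondrial ribosomal protein genes, 12 rose and 4 fell, against 13.2% and 13.3% of all tested genes, with a median of 0.037. Mrps18a (0.32 ± 0.043, adjusted p = 2.8e-05) and Mrps10 (0.26 ± 0.039, adjusted p = 8.3e-05) had the smallest p.

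Among 17 genes of the mTORC1 pathway and TOP mRNA control, 2 rose and 2 fell, with a median of -0.011. These counts are near the shares of all tested genes, of which 13.2% rose and 13.3% fell. Larp1 rose by 0.21 ± 0.040 (adjusted p = 0.00064, edgeR quasi-likelihood test), and Ddit4, an inhibitor of mTORC1, by 0.97 ± 0.16 (adjusted p = 0.00022). Mtor fell by 0.19 ± 0.038 on the log2 scale (adjusted p = 0.0015), and Eif4ebp1, the translation repressor that mTORC1 inactivates, fell by 0.34 ± 0.053 (adjusted p = 0.00011). Of 18 chaperones of ribosomal proteins and genes of ribosome surveillance, 8 rose and none fell, with a median of 0.10. Cdkn1a, the cell cycle inhibitor induced by p53, rose by 2.41 ± 0.18 (adjusted p = 2.1e-08). Its mean level was 3.84 ± 4.21 CPM in HepWT and 13.9 ± 6.21 CPM in HepKO (SD, n = 12 libraries each). Zfp622, which works in the assembly of the large subunit, rose by 0.25 ± 0.045 (adjusted p = 0.00042).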

How the data were processed

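The authors deposited raw counts per Ensembl gene for 24 liver RNA libraries, without normalization. Per the labels' protocols these were stranded total RNA libraries after rRNA depletion. Per the submitters' processing notes reads were aligned with STAR 2.4.0i to mm10. For the counting tool, annotation and strand setting the sources used here give nothing, so members overlapping a gene on either strand are uncertain. Counts were fitted over all genes with edgeR 4.0.16 (R 4.3.3, limma 3.58.1) by its quasi-likelihood F test, two-sided, on genes that passed filterByExpr (at least 10 counts and a total of 15) after TMM scaling, with Benjamini-Hochberg adjusted p below 0.05. One model had a level per group (12 residual degrees of freedom), the other a 24 h cosine and sine per genotype (18). Alternatives included DESeq2 1.42.0, limma-voom, other scalings and filters, and leaving out libraries. Scripts were tested on simulated data. Without molecular identifiers, PCR copies cannot be told from independent molecules. The names of the 5 low-depth columns end in a suffix of unknown meaning. Gene positions came from GENCODE M21, and promoters from RefSeq (GRCm38.p6, 250 bases before to 50 after the start). Members, lists and naming rules (largest and smallest differences, largest amplitudes, and members chosen by role) were chosen with earlier results of these data known. Stellate, cholangiocyte, lymphocyte and erythroid markers and core clock genes were also counted: 1 rose and 4 fell of 10, 2 rose and 1 fell of 6, none of 9, none of 5, and 8 rose and 7 fell of 19. Of 10 other snoRNA host genes, 3 rose and 1 fell. The shares over all tested genes were 13.2% and 13.3%.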

Additional observations from a re-analysis of the deposited data

How the results depend on the processing

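The median difference of the members stayed positive under all alternatives, between 0.12 and 0.23, and between 0.15 and 0.20 when single libraries were left out, where 50 to 65 members were called higher and 0 or 1 lower. Members called higher were 31, and called lower 1, with HepWT replicate 1 alone, and 1 was called lower with no filter on low counts. Counts at single times (ZT2, 6, 10, 14, 18) were 2, 7, 18, 3 and 0 with total counts, 2, 3, 11, 5 and 2 with DESeq2, 0, 2, 8, 4 and 0 with limma-voom, 0, 2, 10, 5 and 0 with a CPM of at least 1, and 1, 1, 5, 2 and 1 with no filter, which also gave 1 interaction. They were 0 without the 5 libraries of lowest depth, 0, 0, 1, 2 and 0 with HepWT replicate 1 alone and 0, 12, 20, 4 and 3 with HepWT replicate 2 alone. Leaving out single libraries gave 0, 0 to 7, 0 to 11, 0 to 6 and 0 to 2. Rhythms in HepWT and HepKO were called in 13 and 2 members by DESeq2, 5 and 1 with a CPM of at least 1, 1 and 1 with either HepWT replicate alone, 0 and 2 with each genotype fitted alone, and 0 to 11 and 0 to 1 without single libraries. The correlation of deviations between same-numbered libraries was over 0.1 in 14 of 66 pairs of groups (median 0.0090), and the main fits did not pair libraries by number. Within HepWT it was over 0.1 in 11 of 15 pairs (median 0.20), and within HepKO in 1 of 15. Same-numbered libraries thus deviated together in HepWT more than in HepKO, which the main fits did not allow for. With a replicate block, 59 members were called higher, 3 at ZT6, and 7 rhythmic in HepWT. Rplp2 reversed with HepWT replicate 1 alone (-0.033) and Rpl41 without HepWT ZT2 replicate 1 (range without single libraries -0.00010 to 0.066). Neither was called in those fits. Of 1116 recomputed differences of 31 named members, 67 lost and 28 gained a call. Where leaving out libraries left 1 in a group, it was assumed to vary like the others. The cause of these changes was not tested. Depth limits Rpl13a and Rps4l most, with as few as 133 and 84 counts in a library.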
